A study of Mus musculus with 16 samples.

Results

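The genes described here are the antibody chains Igkc, Ighm, Igha and Igj and the epithelial receptor Pigr, 5 of the 29535 rows of a table of gene expression in mouse prostate. They were chosen by name as rows whose levels differ across 4 groups of genotype and treatment, so their levels and group differences are given as a description, without a test. Igkc is the constant region of the kappa light chain, Ighm that of the heavy chain of IgM and Igha that of the heavy chain of IgA. Igj, now named Jchain, is the joining chain that links IgM or IgA units into polymers. Pigr is the polymeric immunoglobulin receptor.

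Plasma cells, the antibody-secreting descendants of B cells, make IgA and IgM polymers with a joining chain in mucosal and glandular tissue. Epithelial cells carry Pigr on their basal side, where it binds such polymers, moves them through the cell and releases them into the lumen bound to a cleaved piece of the receptor. In the gut and in many glands this route delivers antibodies into the secretion, so the antibody chains and the carrier are products of different cell types.

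The libraries came from prostates of mice aged 12 months, of the strain hybrid 129/SvImJ and C57Bl/6J. At 1 gene the animals carried the wild-type (+/+) or, on both copies, a mutant allele (-/-), and the treatment was vehicle or finasteride, an inhibitor of the 5-alpha-reductases that convert testosterone to dihydrotestosterone. Poly-A RNA was sequenced from 3 wild-type vehicle, 5 wild-type finasteride, 3 mutant vehicle and 5 mutant finasteride libraries. Whether the libraries stem from separate animals is not stated in the labels. The p-values therefore measure only the spread between these libraries, which may be partly technical.

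Expression is given as the normalized log2 values of the deposited table, not adjusted for gene length as far as the sources state, so levels are compared between libraries and not between genes. Read depth is unknown. Taken out of log2, the values of a library summed to a log2 total of 24.07 to 24.55, and the 10 highest genes held 9.58% to 31.2% of the sum. The luminal and general epithelium markers had a summed log2 level of 16.32 to 16.78 over all 16 libraries, and none of the 5 members is among them.

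Of the 16 libraries, 5 had values that a weighted sum of a pair of libraries from the same group came close to. These were library 3 of wild-type vehicle, library 4 of wild-type finasteride, library 3 of mutant vehicle and libraries 3 and 4 of mutant finasteride. Results are given with all 16 libraries and, for part of them, also over the 11 others, of which 2, 4, 2 and 3 belong to those groups in the same order. A p-value or count of calls that stands alone comes from all 16 libraries, with those 5 counted as replicates.

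The stretches before the starts of Pigr and Igj are shown because the carrier and the joining chain are transcribed by different cells and are the members for which a promoter sequence was at hand. Each is the 250 bases before the start in RefSeq on GRCm38.p6, 5′ to 3′ on the strand of the gene, while the deposited table, made on mm9 per the submitters' processing notes, holds no coordinates. Pigr lies at chr1:130826434-130826683 on the plus strand, and Igj at chr5:88527898-88528147 on the minus strand. Capitals mark CACGTG, the E-box bound by helix-loop-helix factors such as the USF proteins.

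Pigr: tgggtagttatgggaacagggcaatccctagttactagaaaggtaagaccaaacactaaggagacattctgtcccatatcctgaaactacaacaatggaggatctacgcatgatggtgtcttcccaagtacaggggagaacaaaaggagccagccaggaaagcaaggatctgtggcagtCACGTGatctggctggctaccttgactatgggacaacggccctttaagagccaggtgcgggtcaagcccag
Jchain: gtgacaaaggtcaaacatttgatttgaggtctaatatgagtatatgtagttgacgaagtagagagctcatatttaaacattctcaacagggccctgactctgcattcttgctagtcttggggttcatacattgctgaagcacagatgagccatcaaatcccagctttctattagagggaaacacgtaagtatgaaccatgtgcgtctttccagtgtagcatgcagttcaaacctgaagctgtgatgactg

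Both strands were searched for the E-box CACGTG, the octamer ATTTGCAT found in antibody gene promoters and a form of the interferon response element. Pigr holds 1 E-box, which begins 71 bases before the start and overlaps no match of the other motifs. No match of these 3 motifs is in the window of Igj. Of 32851 promoter windows of the same length, 6.02% hold CACGTG, 1.6% the octamer and 2.98% that form of the interferon response element. A match is a description of the sequence and not a binding site.

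The antibody chains were highest in the prostates of finasteride-treated mutants and next highest in those of vehicle-treated wild types, and the other groups were low. In the mutant, the finasteride group lay above the vehicle group by a linear factor of 149 for Igkc, 75.8 for Ighm, 56.6 for Igha and 73.1 for Igj. Pigr had another order: it was high in wild-type vehicle and in mutant finasteride, lowest in mutant vehicle, and spread widely in wild-type finasteride.

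Igkc stood at log2 8.21, 8.35 and 8.04 in wild-type vehicle and at 6.24, 5.16, 6.16, 5.84 and 4.09 in wild-type finasteride. In the mutant it stood at 5.14, 6.6 and 5.72 on vehicle and at 12.58, 13.66, 12.89, 12.88 and 13.20 on finasteride. The order of groups was mutant finasteride, wild-type vehicle, then mutant vehicle and wild-type finasteride, whose ranges overlapped. Means ± SD were 8.20 ± 0.16 (n = 3), 5.50 ± 0.90 (n = 5), 5.82 ± 0.73 (n = 3) and 13.04 ± 0.41 (n = 5) for wild-type vehicle, wild-type finasteride, mutant vehicle and mutant finasteride.

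Ighm, the heavy chain of the first antibody class that a B cell makes, had log2 values of 9.67, 8.80 and 9.21 in wild-type vehicle and 7.71, 7.0, 7.49, 6.86 and 6.61 in wild-type finasteride. Mutant vehicle libraries had 6.98, 8.06 and 7.37, and mutant finasteride libraries had 13.72, 13.71, 13.78, 13.68 and 13.68. The mutant finasteride libraries were nearly level with each other, with an SD of 0.042 (n = 5), against an SD of 0.43 (n = 3), 0.46 (n = 5) and 0.54 (n = 3) in wild-type vehicle, wild-type finasteride and mutant vehicle. The order of groups was that of Igkc, and again mutant vehicle and wild-type finasteride overlapped.

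Igha, the IgA heavy chain, had the widest spread of the 4 antibody chains in wild-type vehicle, with an SD of 1.53 (n = 3), and in mutant finasteride, with an SD of 1.24 (n = 5), but the narrowest in mutant vehicle, with an SD of 0.035 (n = 3). Its log2 values were 5.65, 8.65 and 7.67 in wild-type vehicle and 4.27, 5.78, 5.66, 5.03 and 3.97 in wild-type finasteride. They were 5.67, 5.68 and 5.62 in mutant vehicle and 9.75, 13.06, 10.92, 11.58 and 12.09 in mutant finasteride. Mutant finasteride lay above every other library, while library 1 of wild-type vehicle fell within the low groups, so the other 3 groups overlapped.

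Igj, whose product is shared by IgA and IgM polymers, had log2 values of 7.02, 7.17 and 7.23 in wild-type vehicle and 4.62, 4.80, 5.72, 4.45 and 4.17 in wild-type finasteride. Values were 5.13, 5.25 and 4.59 in mutant vehicle and 10.84, 11.35, 11.14, 11.11 and 11.46 in mutant finasteride. Wild-type vehicle and mutant finasteride stood apart from each other and from the rest, and mutant vehicle overlapped wild-type finasteride. The SD was 0.11 (n = 3) in wild-type vehicle and 0.24 (n = 5) in mutant finasteride.

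Pigr, the epithelial carrier, stood at log2 15.01, 14.89 and 14.91 in wild-type vehicle and at 9.16, 9.0 and 8.89 in mutant vehicle. On finasteride it stood at 11.50, 14.47, 13.50, 12.66 and 10.50 in wild type and at 15.12, 14.59, 15.11, 14.96 and 14.85 in the mutant. Wild-type vehicle and mutant finasteride overlapped near 14.94 ± 0.063 (SD, n = 3) and 14.93 ± 0.22 (SD, n = 5). Wild-type finasteride lay below both and above mutant vehicle in every library, with an SD of 1.57 (n = 5) against 0.14 (n = 3) in mutant vehicle.

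**Figure D1:**
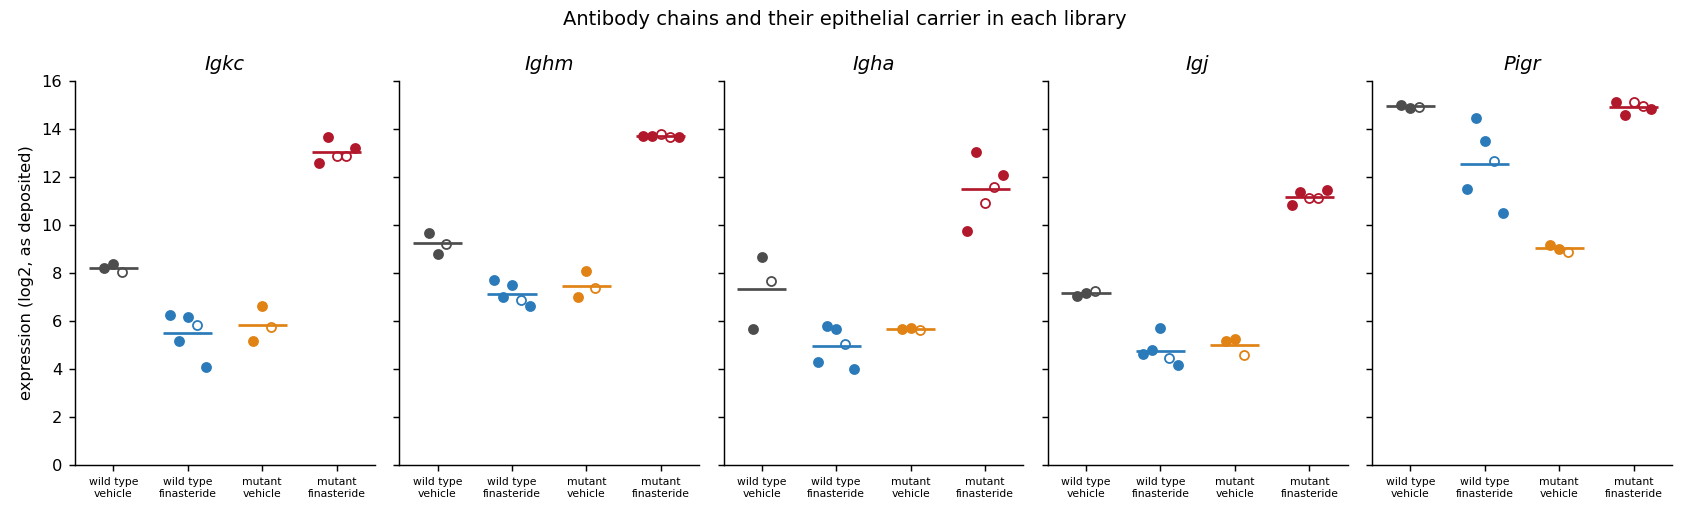
Expression of Igkc, Ighm, Igha, Igj and Pigr (vertical axis, log2 as deposited) in each library of the 4 groups (horizontal axis), with lines at group means and open points for the 5 libraries close to mixtures. Mutant finasteride lies above all other libraries for the 4 antibody chains, while for Pigr it overlaps wild-type vehicle and mutant vehicle is lowest.

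On vehicle, the mutant lay below wild type by 2.38 ± 0.47 on the log2 scale (SE) for Igkc, 1.76 ± 0.28 for Ighm, 1.67 ± 0.77 for Igha and 2.15 ± 0.30 for Igj. For Pigr the difference was -5.92 ± 0.67, a linear factor of 60.7. With the 11 libraries these log2 differences were -2.41, -1.72, -1.47, -1.90 and -5.87. The groups did not overlap for 4 of the 5 members and overlapped for Igha, and 27.9% of all 16895 genes tested had a mutant vehicle group wholly below wild-type vehicle. Nothing is read from these counts, since the choice of members used this comparison.

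In wild type, the finasteride group lay below vehicle for all 5 members. Log2 differences were -2.70 ± 0.42 for Igkc, -2.09 ± 0.25 for Ighm, -2.38 ± 0.69 for Igha, -2.39 ± 0.26 for Igj and -2.41 ± 0.60 for Pigr, and over the 11 libraries -2.87, -2.03, -2.23, -2.27 and -2.46. Only Igha overlapped between these groups, and 18.9% of all genes tested lay wholly lower on finasteride.

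In the mutant, the finasteride group lay above vehicle, without overlap, for all 5 members. Log2 differences were 7.22 ± 0.42 for Igkc, 6.24 ± 0.25 for Ighm, 5.82 ± 0.69 for Igha, 6.19 ± 0.26 for Igj and 5.91 ± 0.60 for Pigr. With the 11 libraries they were 7.27, 6.19, 5.96, 6.03 and 5.77. Of all genes tested, 25.3% lay wholly higher. Taken out of log2, all antibody chain rows together made up 0.00538% to 0.00653% of the summed value in mutant vehicle and 0.158% to 0.311% in mutant finasteride, against 0.0114% to 0.0125% in wild-type vehicle and 0.00422% to 0.00542% in wild-type finasteride. In bulk tissue, more cells of a type and more RNA per cell cannot be told apart.

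On finasteride, the mutant lay above wild type by 7.54 ± 0.36 for Igkc, 6.58 ± 0.22 for Ighm, 6.54 ± 0.59 for Igha and 6.43 ± 0.23 for Igj. For Pigr the gap was 2.40 ± 0.52. No member overlapped between these groups, and 21.8% of all genes tested lay wholly higher in the mutant. Over the 11 libraries the gaps were 7.73, 6.5, 6.71, 6.39 and 2.36.

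The finasteride difference in the mutant minus that in wild type was 9.92 ± 0.59 for Igkc, 8.34 ± 0.36 for Ighm, 8.20 ± 0.97 for Igha, 8.58 ± 0.37 for Igj and 8.32 ± 0.84 for Pigr. Over the 11 libraries it was 10.14, 8.22, 8.19, 8.30 and 8.23. These comparisons share groups, so they are not separate pieces of evidence. With finasteride, all 5 members were lower in wild type and higher in the mutant.

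Igha did not keep a fixed distance from Ighm. Within a library, Igha minus Ighm ranged from -4.02 to -0.15 on the log2 scale in wild-type vehicle and from -3.97 to -0.66 in mutant finasteride, and from -3.44 to -1.21 in wild-type finasteride and -2.37 to -1.31 in mutant vehicle. Igj minus Ighm ranged from -2.65 to -1.63, from -2.88 to -2.22, from -3.09 to -1.77 and from -2.81 to -1.85 in the same order. The gap of Igj had the smaller SD in 3 of the groups, and in mutant vehicle the SD was 0.55 against 0.53 for Igha (n = 3). In mutant finasteride, Igha thus varied among libraries that were level for Ighm.

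The row of Svs2, a secretory protein of the seminal vesicle, varied among the same libraries. In wild-type vehicle libraries 1, 2 and 3, Svs2 stood at log2 19.94, 8.01 and 18.60 where Igha stood at 5.65, 8.65 and 7.67. In mutant finasteride libraries 1 to 5, Svs2 stood at 21.17, 11.52, 21.00, 20.49 and 20.06. Library 2 of each of these groups thus had the lowest Svs2 and the highest Igha. The 7 seminal vesicle markers, Svs2 among them, summed to log2 9.82 to 21.68 in wild-type vehicle, 9.40 to 14.34 in wild-type finasteride, 16.61 to 17.92 in mutant vehicle and 16.65 to 21.54 in mutant finasteride. They did not all move together. Means of Svs3a, Svs4 and Svs6 were 14.07, 16.70 and 9.26 in mutant vehicle and lower, at 12.78, 15.50 and 8.83, in mutant finasteride. Those of Svs1, Svs2, Svs5 and Pate4 were higher in mutant finasteride. The part of these markers in the result was not tested.

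By the root mean square difference of log2 values, each centred on its gene's mean over the 16 libraries, the genes nearest to Igkc, Ighm and Igj were mostly antibody chains, while the nearest to Igha was not. For Igkc the nearest genes were Ighm at 0.594, Igj at 0.668 and the IgG2c heavy chain Ighg2c at 0.953. Ighm and Igj were nearest to each other at 0.413, followed for both by the kappa segment Igkv10-96, at 0.542 from Ighm and 0.547 from Igj. For Igha the nearest were Spp1, the secreted phosphoprotein osteopontin, at 0.788, Igj at 0.809 and Ltf, the iron-binding secretory protein lactotransferrin, at 0.858.

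Ltf had log2 values of 8.16, 9.72, 8.59, 8.92 and 9.23 in mutant finasteride libraries 1 to 5, which rank these libraries as Igha does, and lay between 2.20 and 4.56 elsewhere. Spp1 likewise ranked them from 6.84 in library 1 to 9.95 in library 2, and in wild-type vehicle it stood at 4.20, 7.5 and 6.90. So Spp1, like Igha, was lowest in library 1 and highest in library 2 of wild-type vehicle. Library 3 of wild-type vehicle and library 4 of mutant finasteride each lay close to a mixture of libraries 1 and 2 of their group. Library 3 of mutant finasteride lay close to a mixture of libraries 1 and 5. Their places in these orders are thus not independent repeats, and the shared ranks rest mainly on libraries 1 and 2.

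Pigr was unlike the antibody chains, at 2.09 to 2.47 from each of them. Its nearest genes were Gpr83, a G protein-coupled receptor, at 0.735, Slc5a8, a transporter of short-chain monocarboxylates, at 0.778, Dclk3, a kinase, at 0.813, Tmem117 at 0.866 and Slc27a2, which activates and takes up fatty acids, at 0.884. Gpr83 stood at log2 9.03 to 9.63 in wild-type vehicle, 3.98 to 8.80 in wild-type finasteride, 4.0 to 4.66 in mutant vehicle and 9.45 to 9.53 in mutant finasteride. Slc5a8 stood at 8.70 to 9.01, 2.37 to 8.74, 2.42 to 3.04 and 8.42 to 9.13 in these groups. Both, like Pigr, had similar levels in wild-type vehicle and mutant finasteride and a wide spread in wild-type finasteride.

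**Figure D2:**
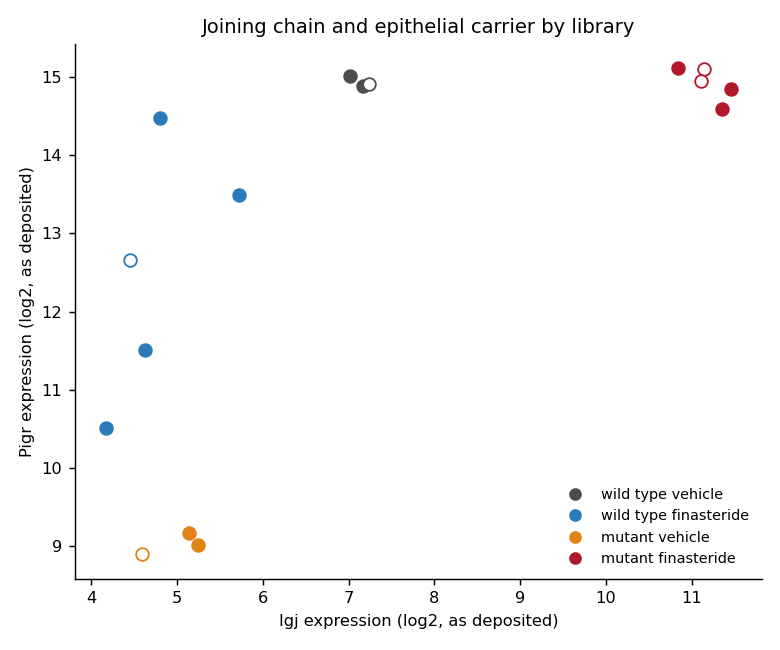
Expression of Igj (horizontal axis) against Pigr (vertical axis), both log2 as deposited, 1 point per library, open for the 5 libraries close to mixtures. Wild-type vehicle and mutant finasteride share a Pigr level but differ in Igj, and wild-type finasteride spans 10.50 to 14.47 for Pigr at low Igj.

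The other constant regions show which antibody classes went with the members. The table holds 256 further rows of antibody heavy and light chains, of which 6 are constant regions. Antibody genes have near-identical copies among which reads may be split, so single rows are uncertain.

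IgG heavy chains were high in mutant finasteride. Ighg2c, the IgG2c heavy chain, had log2 values of 9.61 to 11.61 there (median 10.51) and at most 4.93 elsewhere. The finasteride difference in the mutant was 6.36 ± 0.48 (limma, adjusted p = 1.45e-07, and 6.63e-04 over 11 libraries). Ighg1 stood at 7.91 to 11.04 against at most 3.05 elsewhere, a difference in the mutant of 7.71 ± 0.57. Neither row overlapped any other group.

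Ighg2b, of IgG2b, was higher with finasteride in the mutant by 5.17 ± 0.64 (limma, adjusted p = 1.31e-05, and 0.00463 over 11 libraries). Ighg3, of IgG3, differed by 4.74 ± 0.54 and the lambda constant region Iglc2 by 4.02 ± 0.48. No p is given for Ighg1, Ighg3 and Iglc2 in the comparisons with mutant finasteride, since they passed the filter on low values, a mean of 10 out of log2, only through that group. Ighe, the heavy chain of the allergy-associated class IgE, was below the expression filter and stood at 2.69 to 3.87 in mutant finasteride. Within mutant finasteride, Ighg1, Ighg2b, Ighg2c and Ighg3 were each lowest in library 1 and highest in library 2, as Igha was. Libraries 3 and 4 lay close to mixtures of others, so they add no independent repeats to this order.

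Between the vehicle groups no IgG or lambda constant region passed the test. In wild type, Ighg2c fell by 1.67 on the log2 scale with finasteride (SE 0.48, limma, adjusted p = 0.0132) and Iglc2 by 1.73 (SE 0.48, adjusted p = 0.00994), and over the 11 libraries the adjusted p-values were 0.126 and 0.0876. Differences of -1.55 for Ighg2b, -0.26 for Ighg1 and -0.42 for Ighg3 did not pass (limma, adjusted p = 0.0634, 0.735 and 0.561).

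**Figure D3:**
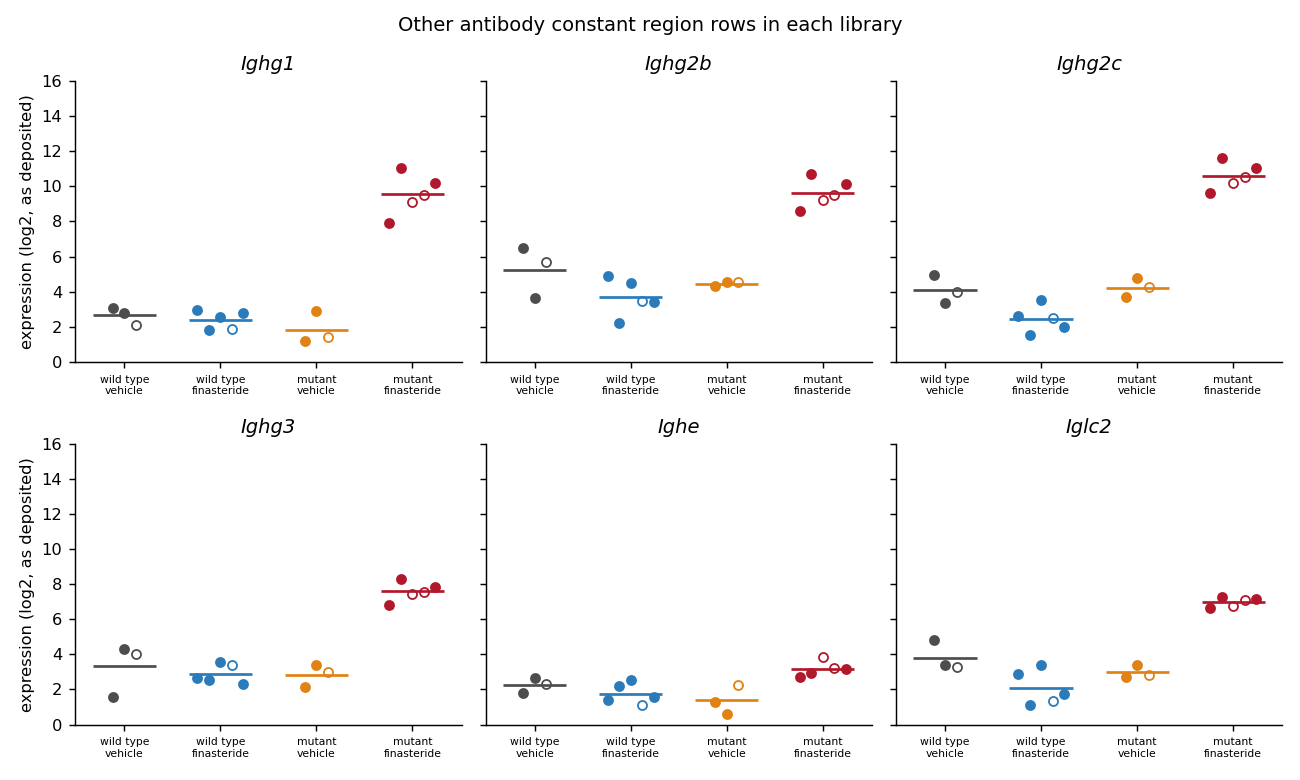
Expression of 6 other antibody constant region rows (vertical axis, log2 as deposited) in each library of the 4 groups (horizontal axis), with lines at group means and open points for the 5 libraries close to mixtures. The IgG rows and Iglc2 are high in mutant finasteride, with Ighg1 at 7.91 to 11.04, while Ighe stays below 4.

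The variable segments, which are joined to shorter segments to encode the antigen-binding domains, were detected broadly in mutant finasteride. The table holds 221 such rows, 114 heavy, 104 kappa and 3 lambda. At least 5 on the log2 scale was reached by 39, 70, 45, 46 and 59 of them in mutant finasteride libraries 1 to 5, by 3, 2 and 0 in wild-type vehicle and by none in the other groups. In mutant finasteride the signal was thus spread over many segments of both heavy and light chains.

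Of these rows, 74 passed the filter on low values, 28 heavy, 43 kappa and 3 lambda. Only 4 of the 256 antibody rows would pass the filter without the mutant finasteride group, so the rows that passed were bound to be high there. Nothing is read from a count of calls over all the rows that passed in the comparisons with that group. In wild type, 19 of the 79 tested antibody rows were called lower with finasteride and 0 higher, beside 21.9% of all genes called lower, and 3 over the 11 libraries.

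The segments differed between mutant finasteride libraries. Igkv3-2, a kappa segment, was the highest variable row in libraries 1, 3, 4 and 5, at log2 10.08, 10.11, 9.90 and 9.53, and stood at 8.80 in library 2, where the kappa segment Igkv5-39 led at 9.75. The heavy segment Ighv1-53 stood near 7.8 to 8.0 in all 5 libraries, and Igkv10-96 at 7.15 to 7.28.

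Other segments, chosen after their values were seen, differed most between libraries 1 and 2. Ighv1-12 stood at 2.56, 8.80, 6.28, 6.99 and 7.89 in libraries 1 to 5, while Igkv3-9 stood at 6.04, 1.61, 6.02, 5.65 and 4.68 and Ighv2-2 at 6.73, 3.56, 6.52, 6.44 and 5.93. Of the 74 rows, 58 were higher in library 2 than in library 1 and 16 were lower. Libraries 3, 4 and 5 lay between libraries 1 and 2 in 58, 66 and 63 rows, and all 3 together in 51. Library 4 lay close to a mixture of libraries 1 and 2, and library 3 to a mixture of libraries 1 and 5, so their values do not add independent repeats.

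**Figure D4:**
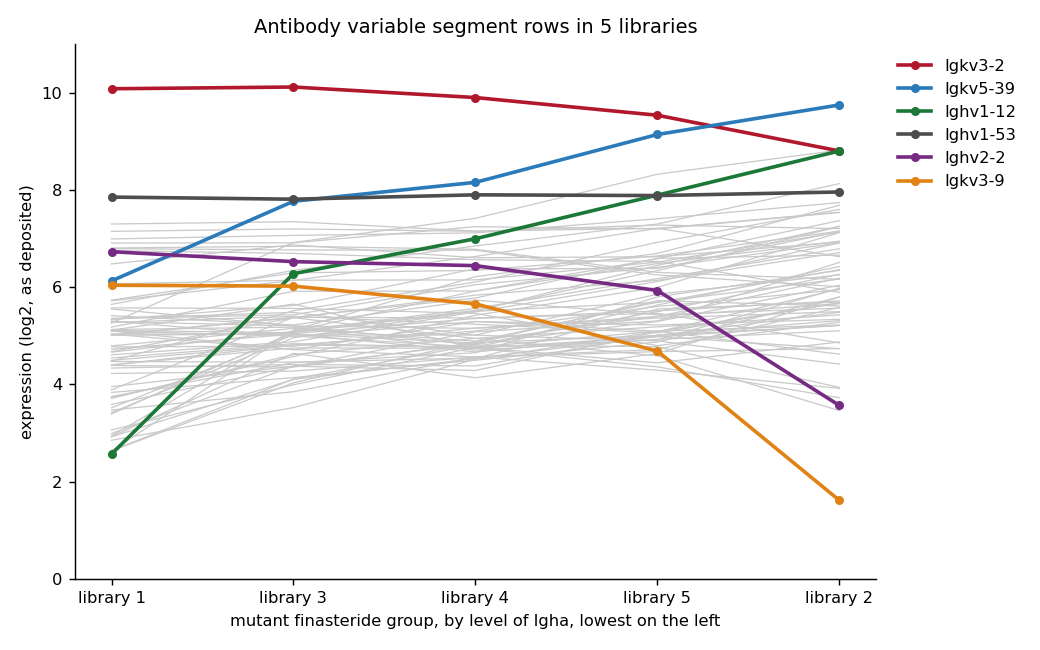
Expression of the 74 tested antibody variable segment rows (vertical axis, log2 as deposited) in the 5 mutant finasteride libraries (horizontal axis), ordered by their level of Igha, with 1 grey line per row and 6 rows in colour. Igkv3-2 is at 10.08 in library 1 and 8.80 in library 2, Ighv1-12 climbs from 2.56 to 8.80 and Ighv1-53 is level.

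Genes of B cells and plasma cells were read from a list of 29, of which 26 were tested and Pax5, Vpreb3 and Tnfrsf17 were too low. Of the 26, 10 passed the filter only through mutant finasteride and had to be high there. They are described by their values and left out of the counts given here for comparisons with that group. That choice was made once the values had been seen. Of the other 16, 8 were called higher with finasteride in the mutant and 3 lower, with a median log2 difference of 0.50, beside 25.1% and 22.9% of the 16449 genes that pass without that group.

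Of the mature B cell genes that pass without that group, Ms4a1, which encodes CD20, rose with finasteride in the mutant by 2.81 ± 0.20 and Cd79b, of the antigen receptor, by 3.31 ± 0.26 (limma, adjusted p = 7.03e-08 and 2.57e-07). The following are descriptions without a test. Cd22, an inhibitory B cell lectin, stood at 3.6, 2.76 and 2.86 in mutant vehicle and at 6.39, 7.37, 6.81, 6.83 and 6.84 in mutant finasteride, a difference of 3.77 ± 0.30. The difference was 2.97 ± 0.26 for Cd79a, the partner of Cd79b, and 3.45 ± 0.21 for Pou2af1, a coactivator at octamer sites of antibody genes. These groups did not overlap for any of the 3 genes.

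The plasma cell end of the list was mixed. Mzb1, an antibody assembly factor of plasma and marginal zone B cells named here after its values were seen, differed by 4.43 ± 0.38, also without a test. Xbp1, the transcription factor of the secretory programme, differed by -0.11 ± 0.08 (limma, adjusted p = 0.237), and Prdm1, which drives plasma cell differentiation, by 0.00 ± 0.19 (adjusted p = 0.998). The endoplasmic reticulum genes Derl3 and Fkbp11 fell by 2.21 and 1.51 (limma, SE 0.26 each, adjusted p = 1.01e-05 and 2.07e-04). Derl3 stood at 12.10, 12.26 and 12.14 in mutant vehicle and at 9.29, 10.74, 9.71, 9.91 and 10.12 in mutant finasteride. Secretory epithelium also uses these endoplasmic reticulum genes, so the list is not specific to plasma cells at that end.

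In wild type, 3 of the 26 were called higher with finasteride and 7 lower, beside 17.9% and 21.9% of all genes tested, with 0 and 2 over the 11 libraries. Bank1, a B cell scaffold protein, fell by 2.01 (limma, SE 0.30, adjusted p = 2.26e-04, and 0.029 over 11 libraries) and Ms4a1 by 0.84 (SE 0.20, adjusted p = 0.00383, and 0.0465). Derl3 rose by 1.37 ± 0.26 (limma, adjusted p = 0.00116, and 0.0536 over 11 libraries).

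Between the vehicle groups, 3 of the 26 were called higher in the mutant and 4 lower, beside 14.3% and 17.5% of all genes tested. Ms4a1 was lower by 2.34 ± 0.22 (limma, adjusted p = 2.38e-06, and 9.64e-04 over 11 libraries), and Prdm1 was higher by 1.30 ± 0.21 (adjusted p = 3.10e-04, and 0.0364). On finasteride, 10 of the 16 were called higher in the mutant than in wild type and 5 lower, beside 32.5% and 30.5% of the genes that pass without mutant finasteride. The change with finasteride was called more positive in the mutant than in wild type for 8 of the 16 and less for 4, beside 28.9% and 27.3%. For Ms4a1 that difference was 3.65 ± 0.28 (limma, adjusted p = 1.41e-07), and for Derl3 it was -3.58 ± 0.37 (adjusted p = 2.43e-06).

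**Figure D5:**
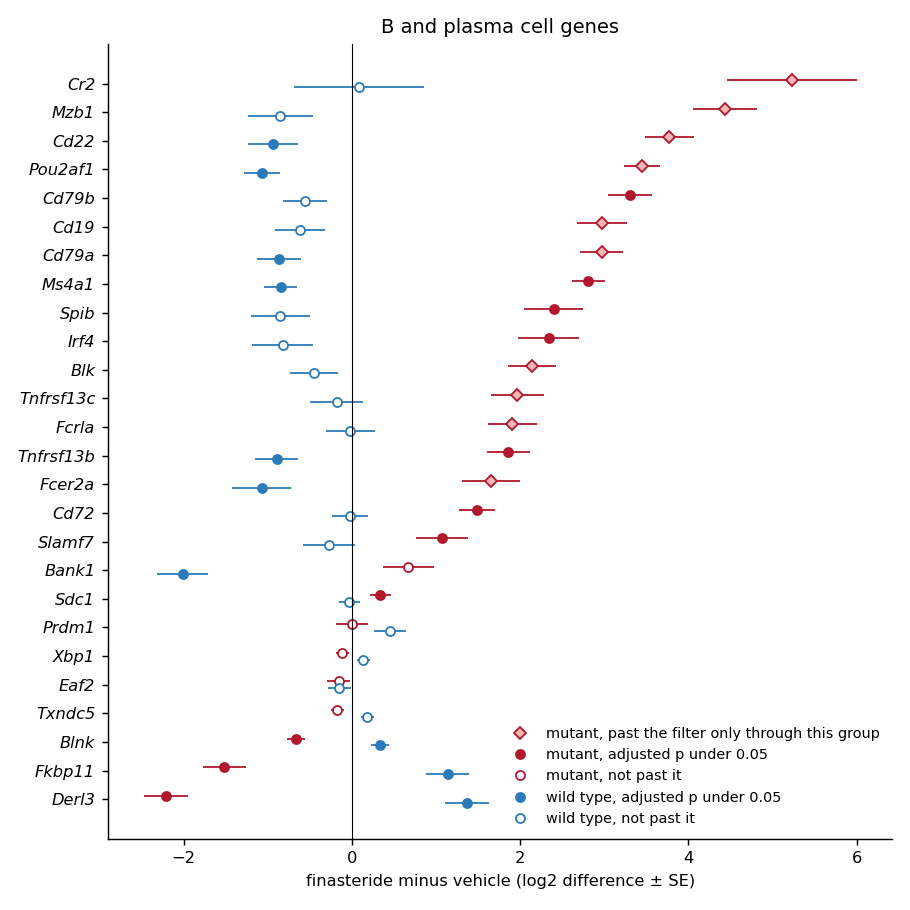
Finasteride minus vehicle (horizontal axis, log2 difference with its SE) for the 26 tested B and plasma cell genes (vertical axis) in the mutant (red) and in wild type (blue), filled where the adjusted p from limma is under 0.05, with diamonds for 10 genes that passed the filter only through mutant finasteride and have no test there. In the mutant most points lie on the right, led by Cr2 at 5.23, and Derl3 and Fkbp11 lie on the left, while in wild type few points lie beyond 1 in either direction.

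Genes for class switching to IgA, plasma cell survival and homing were read from a list of 27, of which 20 were tested. The cytokines Il5, Il6, Il10 and Il21 were among the genes below the filter, as were Cd40lg and Madcam1. With finasteride in the mutant, 15 of the 20 were called higher and 1 lower, with a median log2 difference of 1.06, beside 26.3% and 22.3% of all genes tested. Over the 11 libraries 11 were called higher and 0 lower. Ccr9 passed the filter only through mutant finasteride, and without it the count was 15 of 19 higher and 1 lower. The change with finasteride differed between genotypes for 16 of the 20, beside 56.8% of all genes tested.

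Among chemokines, Ccl28, an epithelial attractant of IgA plasma cells, stood at 3.54, 3.73 and 3.48 in mutant vehicle and at 5.57, 7.73, 6.38, 6.73 and 7.22 in mutant finasteride. It rose by 3.14 ± 0.40 (limma, adjusted p = 1.65e-05, and 0.00542 over 11 libraries). Cxcl13, the B cell follicle chemokine, stood at 7.5, 6.93 and 7.20 in wild-type vehicle, 4.57 to 5.49 in wild-type finasteride, 4.88, 4.75 and 4.64 in mutant vehicle and 7.17 to 7.70 in mutant finasteride. Ccl28 thus followed the high state of the mutant alone, while Cxcl13 was level in wild-type vehicle and mutant finasteride, as Pigr was.

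Cxcl13 was lower in the mutant on vehicle by 2.45 ± 0.22 (limma, adjusted p = 1.41e-06) and fell by 2.22 with finasteride in wild type (SE 0.19, adjusted p = 6.79e-06), and rose by 2.66 ± 0.19 with finasteride in the mutant (adjusted p = 1.10e-07). Vcam1, an adhesion molecule for the integrin of plasma cells, was lower by 1.04 and 1.20 in the former comparisons (limma, adjusted p = 0.00104 and 2.11e-04) and rose by 1.83 ± 0.18 in the latter (adjusted p = 1.55e-06). Over the 11 libraries Vcam1 did not pass on vehicle (limma, adjusted p = 0.0646). Itgb7, a subunit of the gut-homing integrin, and Cxcr4, the receptor that keeps plasma cells in their niche, rose in the mutant by 1.34 ± 0.18 and 1.76 ± 0.23 (limma, adjusted p = 2.75e-05 and 2.52e-05).

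Of the enzymes that make retinoic acid, a switch and homing signal for IgA, Aldh1a1 rose in the mutant with finasteride by 1.33 ± 0.18 and fell in wild type by 1.39 (limma, adjusted p = 3.08e-05 and 7.44e-05). Aldh1a2 was lower in the mutant on vehicle by 3.09 ± 0.49 (limma, adjusted p = 2.22e-04) and rose with finasteride there by 3.53 ± 0.44 (adjusted p = 1.37e-05). Tnfsf13, the survival factor APRIL, was lower in the mutant by 1.19 ± 0.14 on vehicle (limma, adjusted p = 1.96e-05) and had no call with finasteride in either genotype (adjusted p = 0.39 in wild type and 0.382 in the mutant). Aldh1a2 stood at 8.04 to 8.99 in wild-type vehicle, 7.75 to 10.38 in wild-type finasteride and 8.28 to 9.82 in mutant finasteride. It was thus not low in wild-type finasteride, where the antibody chains were. The list thus held genes that followed the antibody chains and others, among them Tnfsf13 and Aldh1a2, that did not in every group.

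In wild type, 2 of the 20 were called higher with finasteride and 9 lower, beside 17.9% and 21.9% of all genes tested, with 0 and 4 over the 11 libraries. Between the vehicle groups 0 were called higher in the mutant and 8 lower, 4 of them over the 11 libraries, beside 14.3% and 17.5% of all genes.

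The route of Pigr through the cell, its known regulators and other carriers of antibodies were read from a list of 31 genes, all tested. With finasteride in the mutant, 7 were called higher and 8 lower, with a median log2 difference of -0.01, beside 26.3% and 22.3% of all genes tested. In the genotype comparison on vehicle, where Pigr differed by a factor of 60.7, 3 were called higher and 7 lower, beside 14.3% and 17.5% of all genes, and 0 and 1 over the 11 libraries. Faim3 passed the filter only through mutant finasteride, and without it 6 of 30 were called higher and 8 lower with finasteride in the mutant. In these comparisons the shares are near those of all genes. With finasteride in wild type, 11 of the 31 were called higher and 10 lower, a larger share than the 17.9% and 21.9% of all genes tested. Over the 11 libraries these counts were 0 and 2.

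Among vesicle transport genes, Rab17, an epithelial recycling GTPase of this route, fell by 1.18 with finasteride in wild type (limma, SE 0.21, adjusted p = 6.80e-04) and differed by 0.35 ± 0.21 in the mutant (adjusted p = 0.182). Rab3d, a GTPase of secretory vesicles, was lower in the mutant on vehicle by 0.84 ± 0.10 (limma, adjusted p = 1.85e-05). Among inducers of Pigr, the interferon gamma receptor Ifngr1 was lower in the mutant by 0.47 ± 0.09 on vehicle (limma, adjusted p = 0.00143, and 0.0821 over 11 libraries) and by 1.20 ± 0.07 on finasteride (adjusted p = 2.91e-09, and 3.21e-05). Relb, of the NF-kappa-B family, rose with finasteride in the mutant by 1.26 ± 0.13 (limma, adjusted p = 3.65e-06), and Il4ra, the receptor of interleukin 4, by 1.47 ± 0.23 (adjusted p = 1.08e-04). Tlr3, a sensor of double-stranded RNA, was lower by 0.96 ± 0.19 in wild type (limma, adjusted p = 0.0012, and 0.0547 over 11 libraries) and higher by 0.70 ± 0.19 in the mutant (adjusted p = 0.00581, and 0.0893).

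The genes on either side of Pigr on the chromosome are antibody Fc receptors too, Fcamr before it and Fcmr, listed as Faim3, after it. Fcamr, a receptor of IgA and IgM, stood at 8.54, 8.36 and 8.17 in wild-type vehicle, 6.09 to 7.77 in wild-type finasteride, 7.26, 7.34 and 6.92 in mutant vehicle and 7.75 to 7.98 in mutant finasteride. It followed the order of Pigr in part, with wild-type vehicle highest, but its lowest values were in wild-type finasteride. It was lower in the mutant on vehicle by 1.18 ± 0.30 (limma, adjusted p = 0.00804, and 0.136 over 11 libraries) and fell by 1.57 with finasteride in wild type (SE 0.27, adjusted p = 5.74e-04, and 0.0322). The difference of 0.69 ± 0.27 with finasteride in the mutant passed with 16 libraries (limma, adjusted p = 0.0477), but not with 11 (adjusted p = 0.321) nor in 13 of the 16 fits that left out 1 library.

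Faim3, the IgM receptor of B cells, stood at 0.81 to 3.06 in every library outside mutant finasteride and at 4.22, 5.75, 4.90, 5.05 and 5.25 within it. With finasteride in the mutant it differed by 2.43 ± 0.34, given without a test for the reason above. Fcgrt, the neonatal Fc receptor that carries IgG, rose in that comparison by 1.06 ± 0.14 (limma, adjusted p = 2.05e-05, and 0.00512 over 11 libraries). Faim3, like the antibody chains, was highest in mutant finasteride, while Fcamr, on the other side of Pigr, was highest in wild-type vehicle.

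Markers of other immune cells were higher with the members in mutant finasteride, but not in every comparison. With finasteride in the mutant, 9 of 10 T cell markers, 10 of 10 macrophage markers and 5 of 6 leukocyte markers were called higher and 0 lower, beside 26.3% and 22.3% of all genes tested. Summed log2 levels in wild-type vehicle, wild-type finasteride, mutant vehicle and mutant finasteride were 8.27 to 8.31, 7.44 to 7.94, 8.63 to 8.70 and 9.56 to 10.25 for T cells. For macrophages they were 12.18 to 12.26, 11.31 to 11.87, 11.61 to 11.66 and 12.54 to 13.13. T cell markers thus had no overlap between mutant finasteride and the rest, as for the antibody chains, while mutant vehicle was next in place of wild-type vehicle. Leukocyte markers summed to 11.02 to 13.01, 10.54 to 11.95, 14.63 to 14.94 and 14.64 to 15.24, so mutant vehicle overlapped mutant finasteride in this sum. Most of the sum was Cd52, at 14.58 to 14.90 in mutant vehicle and 14.53 to 15.10 in mutant finasteride. The other 5 markers were higher in mutant finasteride without overlap. The mean log2 of all 6 was 8.47 to 8.53 in mutant vehicle, where the members were low, and 9.43 to 10.20 in mutant finasteride.

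Lymph node markers, some of them shared with the B cell list, summed to 8.67 to 9.02, 7.55 to 8.59, 7.78 to 7.84 and 9.26 to 9.94 in the same order of groups. Of the 6 tested, 4 passed the filter only through mutant finasteride, so no count is given. The vessel addressins of lymph nodes were low, with Glycam1 at 2.50 to 4.15 and Madcam1 at 2.58 to 3.72 in mutant finasteride, and Ccl19 at 2.48 to 4.15. Cr2, a complement receptor of B cells and follicular dendritic cells, chosen after its values were seen, stood at 8.90, 5.00, 8.87, 8.37 and 7.99 in mutant finasteride libraries 1 to 5 and at 0.88 to 3.63 elsewhere. It was thus lowest in library 2, where Igha was highest. The part of these cell types in the levels of the members was not tested.

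Luminal and general epithelium summed to log2 16.32 to 16.40, 16.42 to 16.65, 16.58 to 16.71 and 16.36 to 16.78 in the 4 groups, and 4 of its 12 markers were called higher and 2 lower with finasteride in the mutant, near the 26.3% and 22.3% of all genes tested. On vehicle, where Pigr was lower in the mutant, 5 of these 12 markers were called higher in the mutant and 1 lower, beside 14.3% and 17.5% of all genes tested. Over the 11 libraries these counts were 1 and 0, beside 9.06% of all genes called in either direction.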

How the data were processed

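Poly-A RNA of 16 mouse prostate samples was sequenced (TruSeq, HiSeq2000, per the labels' protocols). The authors deposited 1 table of normalized log2 expression values. That the logarithm has base 2 was inferred from the summed values, and how the authors made the table is not given in the sources used here. CASAVA 1.8.2, TopHat, Cufflinks, DESeq, DESeq2 and build mm9 are named, per the submitters' processing notes. No counts were recovered, so depth and counting error are unknown.

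Groups came from the labels. The mutated gene and its values are not reported here. Genes whose mean out of log2 was 10 or more, 16895 in all, were tested with limma 3.58.1 (R 4.3.3) on 4 group means with a variance trend. Benjamini-Hochberg adjustment ran over all of them, with a threshold of 0.05. Differences carry moderated standard errors. The model was tested on simulated data. Tables were made in Python 3.11.15. A library counted as close to a mixture where 2 others of its group, each at a weight of at least 0.2, left a residual of under 0.1 over genes of at least 8 on the log2 scale.

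Members and gene lists were chosen with earlier results of these data known, so the lists are not independent evidence. Named genes were, per list and comparison, up to 4 with the lowest p past the threshold and the most abundant one, every constant region row, and the 5 genes most like each member; the text names a subset. Alternatives were quantile normalization, centring on library medians, a pseudocount of 10, no filter, a mean of at least 50, the 11 libraries, leaving out each library and, added after seeing the data, counting list genes that pass the filter without mutant finasteride. Symbols were matched through RefSeq synonyms.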

Additional observations from a re-analysis of the deposited data

Results flagged for a closer look

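With finasteride, 4 members lay lower in wild type and higher in the mutant, without overlap in either genotype. Of all genes tested, 18.9% lay wholly lower in wild type and 25.3% wholly higher in the mutant. The share with both was not counted. Nothing is read from the count of members, since their choice used these values. Finasteride minus vehicle in the mutant, less the same difference in wild type, was 9.92 on the log2 scale for Igkc, 8.34 for Ighm, 8.58 for Igj and 8.32 for Pigr. The difference between genotypes was not tested for these genes, since it chose them. Among list genes the difference in response between genotypes passed limma's test for 79 of 79 tested antibody rows, 22 of 26 B and plasma cell genes, 16 of 20 genes of IgA switching and homing and 19 of 31 genes of the Pigr route and its regulators, beside 56.8% of all genes tested. Of these, 75 antibody rows and 10 B and plasma cell genes passed the filter on low values only through mutant finasteride. The counts of 79 and 22 were thus largely or partly set by the filter, and nothing is read from them. Among rows that pass without that group, the difference in response was called for 4 of 4 antibody rows and 12 of 16 B and plasma cell genes.

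Of 104 groups of 5 libraries checked for a library far from the others, 10 held one, where chance gives about 1 in 20 for independent values. Libraries 3 and 4 of mutant finasteride and library 4 of wild-type finasteride lay close to mixtures. That rate therefore need not hold here, and no excess is read from the count. In mutant finasteride these were Bank1 at 5.78, Cd79a at 6.98, Igkv4-68 at 6.63, Itgb7 at 8.19, Nfkb1 at 11.3 and Tlr3 at 8.11 on the log2 scale. In wild-type finasteride they were Cd22 at 3.38, Il6ra at 8.66, Prdm1 at 5.54 and Relb at 8.32.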

How the results depend on the processing

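Over 11 libraries the genes called numbered 1531 on vehicle between genotypes, 1445 with finasteride in wild type, 3431 in the mutant, 6946 on finasteride between genotypes and 4963 for the interaction, against 5374, 6721, 8206, 10757 and 9597 over 16. The lists then had, between genotypes on vehicle and with finasteride in wild type, 2 and 3 antibody rows, 2 and 2 B and plasma cell genes, 4 and 4 IgA switching and homing genes and 1 and 2 Pigr route genes, and the Pigr route had 6 with finasteride in the mutant and 9 for the interaction.

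At a mean of at least 50, fewer genes were tested. Antibody rows called were then 3 between the vehicle groups and 4 with finasteride in wild type. B and plasma cell genes called were 4 in each of these comparisons. IgA genes called were 10 with finasteride in the mutant, 10 on finasteride between genotypes and 9 for the interaction. With no filter, antibody rows called were 17 on vehicle, 159 with finasteride in the mutant, 173 on finasteride and 151 for the interaction. With a pseudocount of 10, antibody rows were 6 on vehicle and 12 with finasteride in wild type, and Igj differed by -2.02 for finasteride in wild type, by 5.8 in the mutant, by 5.96 on finasteride and by 7.81 for the interaction. Under quantile normalization, antibody rows were 2 and 9 and B and plasma cell genes 5 with finasteride in wild type, and Igj differed by -1.97 in wild type and 8.02 for the interaction. Among rows that pass the filter without mutant finasteride, an alternative chosen after seeing the data, 4 antibody rows were called in each comparison with that group, and 11, 15 and 12 B and plasma cell genes with finasteride in the mutant, on finasteride and for the interaction. The cause of the shifts under these scalings was not tested. All 5 members kept their direction in every alternative run, moving by at most 0.837 on the log2 scale.

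Leaving out 1 library, calls on vehicle ranged from 4 to 12 antibody rows (fewest without library 1 or 3 of mutant vehicle or 3 of wild-type vehicle), 4 to 7 B and plasma cell genes and 6 to 13 Pigr route genes, and with finasteride in wild type from 13 to 22 Pigr route genes (13 without library 3 of wild-type vehicle). Ranges that crossed zero were -0.23 to 0.56 for Ighg2c, -1.33 to 0.037 for Ighg3 and -0.066 to 0.019 for Xbp1 on vehicle, -1.28 to 0.086 for Ighg3 with finasteride in wild type and -0.032 to 0.10 for the interaction of Rab3d. Directions also turned for Xbp1 on vehicle (0.043) and the interaction of Rab3d (-0.17) after centring, and under quantile normalization for Ighg1 (0.46) and Ighg3 (0.038) in wild type, Il6ra (-0.12) and Xbp1 (0.14) with finasteride in the mutant, and the interaction of Xbp1 (0.088).

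Another scaling moved the share of higher calls. Deposited, centred and quantile-normalized values gave 44.9%, 55.5% and 54.1% higher on vehicle, 45.0%, 54.9% and 57.9% for finasteride in wild type, 54.1%, 39.4% and 41.1% for it in mutants, 53.3%, 42.6% and 41.4% on finasteride and 53.2%, 40.3% and 39.6% for the interaction. The median of all genes moved by up to -0.233, small beside the members' differences. No paired analysis was possible because the titles carry running numbers that pair nothing. Unknown depth limits the precision of low rows, and genotype and treatment groups of 3 libraries, 2 without those close to mixtures, limit the comparisons on vehicle.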
